A study of Mus musculus with 6 samples.

Results

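In neurons sorted on day 11 of differentiation, the start site of every scored gene was placed in 1 of 4 states by the histone marks found there: H3K4me3 only, H3K27me3 only, both, or neither. A gene carried a mark when a peak of that mark's deposited neuron list lay within 1000 bp of its start site. The start site was the start of a plus-strand gene and the end of a minus-strand gene. All 18778 genes named in any of the series' 4 gene tables were scored, 14600 of them with a symbol. Of these, 10719 had H3K4me3 only, 861 had both marks, 2494 had H3K27me3 only and 4704 had neither. Genes far from every peak of the series are in none of the tables, so the 4 shares describe genes near peaks and not the whole genome. The neuron H3K27me3 gene table stops at a false discovery rate of 9.86e-21, so genes beside weaker H3K27me3 peaks can be missing too. The neuron H3K4me3 gene table reaches 0.000956. The part of this difference in the 4 shares was not tested.

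The cells were of the C57BL/6 strain. Neural stem cells made from mouse embryonic stem cells, at passages 25 to 30, were differentiated for 4 days in a first medium and then matured for 7 days in a second. Neurons were then sorted for RedStar, a red fluorescent protein which is switched on with Mapt because its promoter drives the reporter. Mapt encodes the microtubule protein tau. The sort therefore selects cells that switch on Mapt, whatever their transmitter type, and Mapt itself is no independent marker of the sorted cells. Chromatin was fixed with 1% formaldehyde and sheared to about 300 bp, and precipitated with an Active Motif antibody to H3K4me3 or an Upstate antibody to H3K27me3. There was 1 library for H3K4me3, 1 for H3K27me3 and 1 input for the neurons, with no second culture, so no difference below has a replicate check and no test was run. Stem cell samples of the same series supplied only gene names and positions here. Their peaks thus had a part in which genes were scored, including genes with neither mark in neurons.

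H3K4me3 is trimethylation of lysine 4 of histone H3, placed by the Set1 and Mll complexes around the start sites of transcribed or poised genes. H3K27me3 is trimethylation of lysine 27, placed by Polycomb repressive complex 2 over silent developmental genes, often across whole gene clusters. Start sites where the marks meet are called bivalent in embryonic stem cells, where many belong to developmental regulators. In a population of cells, peaks of both marks at a start site do not show that the marks share a nucleosome, an allele or a cell. A mark at a start site is not a level of expression, and no RNA was measured in these samples.

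Promoters from each state show what the sequences in question look like. The 250 bases before the RefSeq start (build GRCm38.p6) are printed for 7 genes, 5′ to 3′ on the gene's strand, with each CG dinucleotide in capitals. Olig2, a factor of oligodendrocyte and motor neuron progenitors (chr16:91225300-91225549, plus strand), and Tubb3, the neuronal tubulin (chr8:123411303-123411552, plus strand), had H3K4me3 only. Jag2, a Notch ligand (chr12:112929496-112929745, minus strand), and Id4, an inhibitor of bHLH factors (chr13:48260866-48261115, plus strand), had both marks. Otp, a homeobox factor of hypothalamic neurons (chr13:94875386-94875635, plus strand), and Krt14, a keratin of the epidermis (chr11:100206031-100206280, minus strand), had H3K27me3 only. Gfap, the intermediate filament of astrocytes (chr11:102897201-102897450, minus strand), had neither. The peaks are on build mm9, so these positions cannot be laid over them.
Olig2: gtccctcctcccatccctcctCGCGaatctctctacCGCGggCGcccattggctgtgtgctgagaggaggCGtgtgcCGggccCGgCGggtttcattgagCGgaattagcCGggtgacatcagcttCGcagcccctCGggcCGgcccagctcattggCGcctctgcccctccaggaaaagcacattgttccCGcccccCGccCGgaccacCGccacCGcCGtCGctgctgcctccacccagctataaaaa
Tubb3: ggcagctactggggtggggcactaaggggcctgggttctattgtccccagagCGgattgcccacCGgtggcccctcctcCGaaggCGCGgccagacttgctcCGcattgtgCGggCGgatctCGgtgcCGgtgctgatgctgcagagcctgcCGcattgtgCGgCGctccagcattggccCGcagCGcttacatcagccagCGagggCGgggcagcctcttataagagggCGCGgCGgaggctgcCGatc
Jag2: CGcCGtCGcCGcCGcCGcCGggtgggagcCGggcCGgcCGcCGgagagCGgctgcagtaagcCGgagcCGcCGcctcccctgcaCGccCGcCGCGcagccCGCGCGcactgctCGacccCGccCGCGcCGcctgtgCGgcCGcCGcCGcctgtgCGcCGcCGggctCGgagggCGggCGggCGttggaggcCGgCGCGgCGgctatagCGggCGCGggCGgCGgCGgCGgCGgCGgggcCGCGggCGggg
Id4: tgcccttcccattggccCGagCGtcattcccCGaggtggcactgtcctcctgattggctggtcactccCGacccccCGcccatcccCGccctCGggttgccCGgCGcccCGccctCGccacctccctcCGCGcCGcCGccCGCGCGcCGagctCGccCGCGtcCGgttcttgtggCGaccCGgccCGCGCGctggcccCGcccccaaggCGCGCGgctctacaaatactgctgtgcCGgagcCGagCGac
Otp: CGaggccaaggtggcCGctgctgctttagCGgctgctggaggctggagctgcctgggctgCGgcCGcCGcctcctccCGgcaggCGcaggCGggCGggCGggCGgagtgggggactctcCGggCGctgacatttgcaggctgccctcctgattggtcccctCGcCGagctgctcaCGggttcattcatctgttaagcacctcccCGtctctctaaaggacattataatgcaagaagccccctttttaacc
Krt14: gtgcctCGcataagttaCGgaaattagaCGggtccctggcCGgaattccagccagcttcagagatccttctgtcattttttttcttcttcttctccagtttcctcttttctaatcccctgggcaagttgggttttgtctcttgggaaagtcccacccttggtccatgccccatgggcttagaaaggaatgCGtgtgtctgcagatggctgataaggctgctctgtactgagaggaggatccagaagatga
Gfap: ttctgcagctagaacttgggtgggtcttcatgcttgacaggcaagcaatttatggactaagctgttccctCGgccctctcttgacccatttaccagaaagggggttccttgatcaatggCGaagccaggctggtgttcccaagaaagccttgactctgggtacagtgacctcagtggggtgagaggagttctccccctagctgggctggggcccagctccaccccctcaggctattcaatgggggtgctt

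The printed promoters differed most in CG dinucleotides. Jag2 had 54 and Id4 had 35, Olig2 had 22, Tubb3 had 21 and Otp had 18, against 5 for Krt14 and 2 for Gfap. Over the same window in all 32851 promoters of the RefSeq table the median was 6 and the quartiles were 2 and 16. Of the 7, Olig2 alone held TATAAA, counted on both strands, as did 12.4% of all promoters. GGGCGG, on either strand, occurred in all printed promoters but those of Krt14 and Gfap, and in 32.7% of the table. The 4 states could not be compared by sequence, since only 79.7% of H3K4me3-only genes with a symbol, 72.5% of those with both marks, 72.0% of those with H3K27me3 only and 73.4% of those with neither matched a promoter. That check is void, as under 80% of each state matched.

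The peak lists differed in form. The H3K4me3 list held 14846 peaks over 24.67 Mb with 983266 reads and 257891 input reads, and the H3K27me3 list 36053 peaks over 146.44 Mb with 3161819 reads and 1261412 input reads. Library totals were not among the values used, so the depth outside peaks is unknown. Within peaks, H3K4me3 stood at 39.9 reads per kb over 10.5 of input, and H3K27me3 at 21.6 over 8.61. Of the H3K4me3 peaks, 9649 (65.0%) lay within 1000 bp of a scored start site, with a median width of 1600 bp against 1200 bp elsewhere. Of the H3K27me3 peaks, 3057 (8.48%) did so, with 4600 bp against 2800 bp elsewhere. Most H3K27me3 peaks thus lay away from scored start sites. The neuron H3K27me3 gene table names genes only at peaks with a false discovery rate of at most 9.86e-21. Its part in this share and in these widths was not tested.

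The labelled cell type was set against marker genes. Of 11 neuronal markers 10 were scored. Tubb3, Mapt, Mtap2 (microtubule proteins) and Dcx (doublecortin, of migrating neurons) had H3K4me3 only and the RNA-binding Elavl4 had both. Stmn2, a tubulin-binding growth protein, and Syt1, the calcium sensor of vesicle release, had H3K27me3 only. Elavl3, Snap25 and Syp, an RNA-binding protein and proteins of synaptic vesicle fusion and vesicles, had neither, and their nearest H3K4me3 peaks lay 32454, 34390 and 83003 bp away. Of the stem cell markers, Nes, Sox2, Pax6, Fabp7 and Hes5 had H3K4me3 only and Prom1 had H3K27me3 only. Astrocyte markers were mixed, with Gfap and S100b at neither, Aldh1l1 at H3K27me3, Gja1 at both and Aldoc at H3K4me3. All 3 scored markers of microglia and blood and 3 of the 4 of vessels had neither mark, and Kdr, a vessel receptor, had H3K27me3 only. The marks alone therefore did not separate neurons from stem cells, and the label rests on the sort. What cells other than neurons added to the states was not tested.

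Across all 18778 genes the shares of the states were 57.1% for H3K4me3 only, 4.59% for both, 13.3% for H3K27me3 only and 25.1% for neither. Among the 14600 genes with a symbol they were 65.6%, 4.99%, 11.7% and 17.7%, and gene lists below are read against these. Genes with a symbol made up 89.3% of H3K4me3-only genes, 84.6% of genes with both marks, 68.7% of H3K27me3-only genes and 55.0% of genes with neither. Genes with both marks were long, with a median of 32769 bp from start to end, against 20262 bp for H3K4me3 only, 9126 bp for H3K27me3 only and 6441 bp for neither. Another scored start site lay within 1000 bp of 33.6% of H3K4me3-only start sites, 19.6% of those with both, 8.82% of those with H3K27me3 only and 4.51% of those with neither.

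H3K4me3 peaks were smaller and thinner where H3K27me3 was also present. Their median width was 1400 bp at genes with both marks (quartiles 1000 and 1800 bp) and 1800 bp at H3K4me3-only genes (1200 and 2400 bp). The median peak held 43 reads over 11 input reads at genes with both marks and 76 over 16 at H3K4me3-only genes. Per kb this was 33.3 against 42.9 reads, and the authors' fold over input was 4.15 against 4.66. The quartile ranges overlapped in all of these measures. Input density was lower with both marks too, 8.13 against 9.17 reads per kb. H3K4me3 peaks wider than 3000 bp marked 1145 H3K4me3-only genes (10.7%) and 57 genes with both (6.62%).

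H3K27me3 peaks hardly differed between genes with both marks and genes with H3K27me3 only. These groups did not enter the scoring alike. The neuron gene table of H3K4me3 reaches a false discovery rate of 0.000956, and that of H3K27me3 only 9.86e-21. The part of this in the values below was not tested. Median widths were 4800 bp (quartiles 2800 and 9600 bp) and 5000 bp (3000 and 9200 bp), and this order turned around in 4 of the other settings tried. Median reads per kb were 22.5 with both marks and 22.1 with H3K27me3 only, whereas the fold over input was 2.86 against 3.21, so the order depended on the measure. Input density in these peaks was 8.33 against 7.25 reads per kb. Peaks wider than 10000 bp marked 202 genes with both (23.5%) and 536 with H3K27me3 only (21.5%). Chromosome 1, where input reads were raised, held 18.0% of genes with both marks and 7.88% of all genes. Without it the H3K27me3 widths were 4200 bp with both against 4800 bp alone, and the folds 3.02 against 3.32.

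**Figure D1:**
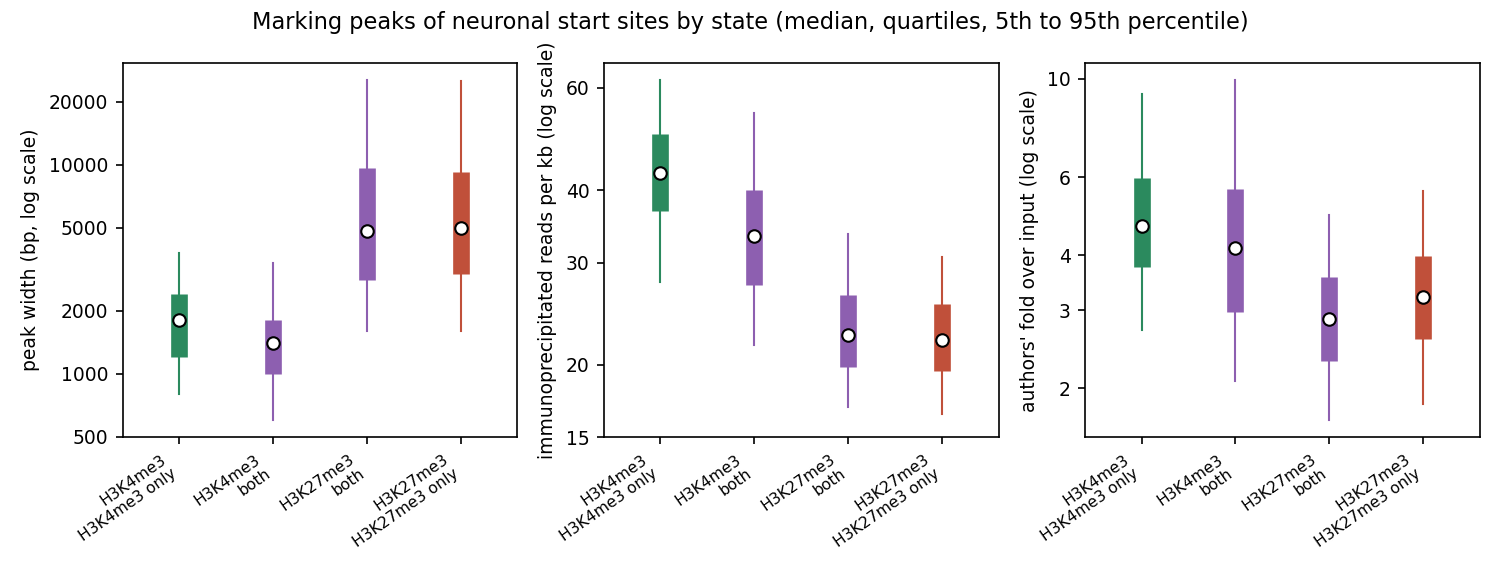
Peaks at start sites by mark (first line of each label) and state (second line), on log scales: width in bp, immunoprecipitated reads per kb and the authors' fold over input. White points are medians over genes, thick bars quartiles and thin lines the 5th to 95th percentile; H3K4me3 medians of width are 1800 bp for H3K4me3 only and 1400 bp for both, and the H3K27me3 medians are 4800 and 5000 bp.

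The marks lay differently around the start site. An H3K4me3 peak covered the start site itself at 85.0% of H3K4me3-only genes and 79.8% of genes with both marks. Coverage by H3K4me3 was highest 200 bp downstream, at 92.6% and 85.0% of genes. Among covered start sites, H3K4me3 reached a median of 604 bp upstream and 1135 bp downstream with H3K4me3 only, and 455 bp and 894 bp with both. It reached further downstream than upstream in 75.8% and 75.1% of those genes. Among start sites with no other start within 1000 bp these shares were 87.7% and 79.3%. H3K27me3 was close to even about the start site, with medians of 2326 bp upstream and 2842 bp downstream for H3K27me3 only and 2806 bp and 2930 bp for both.

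H3K27me3 coverage dipped over the start site where H3K4me3 was also present. At genes with both marks an H3K27me3 peak covered 74.2% of positions 1000 bp upstream, 65.9% at 200 bp upstream, 67.1% at the start site and 74.4% at 1000 bp downstream. At H3K27me3-only genes the same positions gave 72.3%, 79.1%, 81.6% and 81.2%, a single crest. All of these positions lie within the 1000 bp that the rule used to choose the genes, and the part of the rule in these shapes was not tested. Away from the start site coverage stayed high, 31.4% at 10000 bp upstream and 29.5% at 10000 bp downstream with both marks, and 34.0% and 38.3% with H3K27me3 only.

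**Figure D2:**
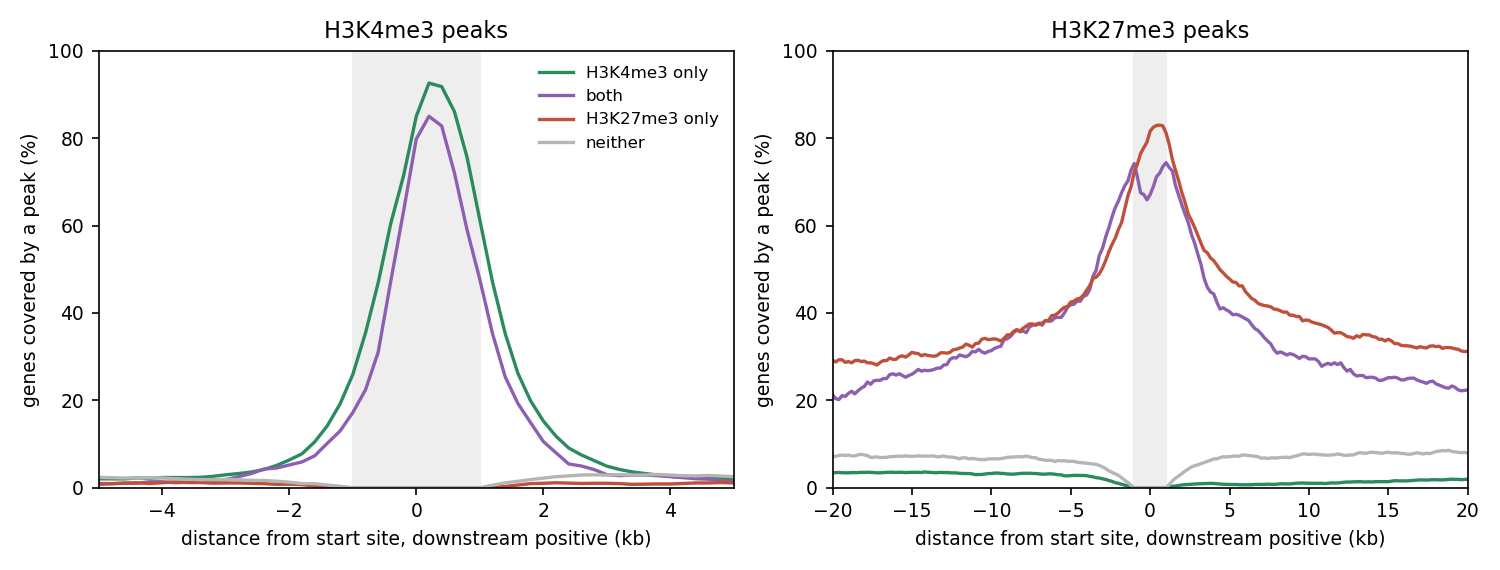
Share of genes (%) whose position at a given distance from the start site (kb, downstream positive) lies under an H3K4me3 peak (left) or an H3K27me3 peak (right), by state; the grey band is the 1000 bp window of the rule, inside which the states without a mark are 0 by construction. H3K27me3 at genes with both marks falls from 74.2% at 1000 bp upstream to 65.9% at 200 bp upstream, where H3K27me3-only genes stand at 79.1%.

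At the 861 genes with both marks the peaks mostly overlapped. They shared at least 1 base at 735 genes (85.4%), and at least 50% of the H3K4me3 peak lay inside the H3K27me3 peak at 605 (70.3%). The H3K4me3 peak was wholly inside the H3K27me3 peak at 460 genes (53.4%), overlapped it in part at 269 (31.2%), contained it at 6 and shared no base with it at 126 (14.6%). Nested H3K4me3 peaks were short and sat in broad domains, with median widths of 1200 bp and 7300 bp, a H3K4me3 fold of 3.97 and an H3K27me3 fold of 3.02. Where no base was shared, the medians were 1400 bp and 3000 bp, with folds of 4.41 and 2.57. A short peak fits more easily inside a broad one, so these classes favour such widths by definition. The part of this in the widths was not tested.

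The start site lay under both peaks at 451 of these genes, under H3K4me3 alone at 236, under H3K27me3 alone at 127 and under neither at 47. Of the 236 start sites under H3K4me3 alone, 91 (38.6%) had H3K27me3 peaks within 5000 bp on both sides. In the same 236 genes the nearest H3K27me3 peak was upstream at 123 and downstream at 113, so neither side stood out. H3K27me3 covered the whole gene from start to end at 112 genes with both marks (13.0%) and at 680 with H3K27me3 only (27.3%).

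Listed genes needed in nearly every cell mostly carried H3K4me3 only. All 24 scored housekeeping genes did so, among them Actb (β-actin, 4000 bp, 220 reads against 35 of input) and Gapdh (glycolysis, 4600 bp, 211 over 61). All 24 listed subunits of mitochondrial respiration did too, such as Ndufa1 and Ndufa4 of complex I. The list is not complete: Ndufa3 and Ndufa10, also of complex I and not listed, had both marks. The same held for 71 of 73 mitochondrial ribosomal proteins, 69 of 76 cytosolic ribosomal proteins, 34 of 36 proteasome subunits and 45 of 54 histone cluster genes, against 65.6% of genes with a symbol. Among 278 Zfp genes, mostly zinc finger proteins, 230 had H3K4me3 only, 9 had H3K27me3 only and 1, Zfp704, had both. Near-identical copies of ribosomal protein and histone genes can share reads, and the treatment of repeated reads is not given in the sources used here.

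**Figure D3:**
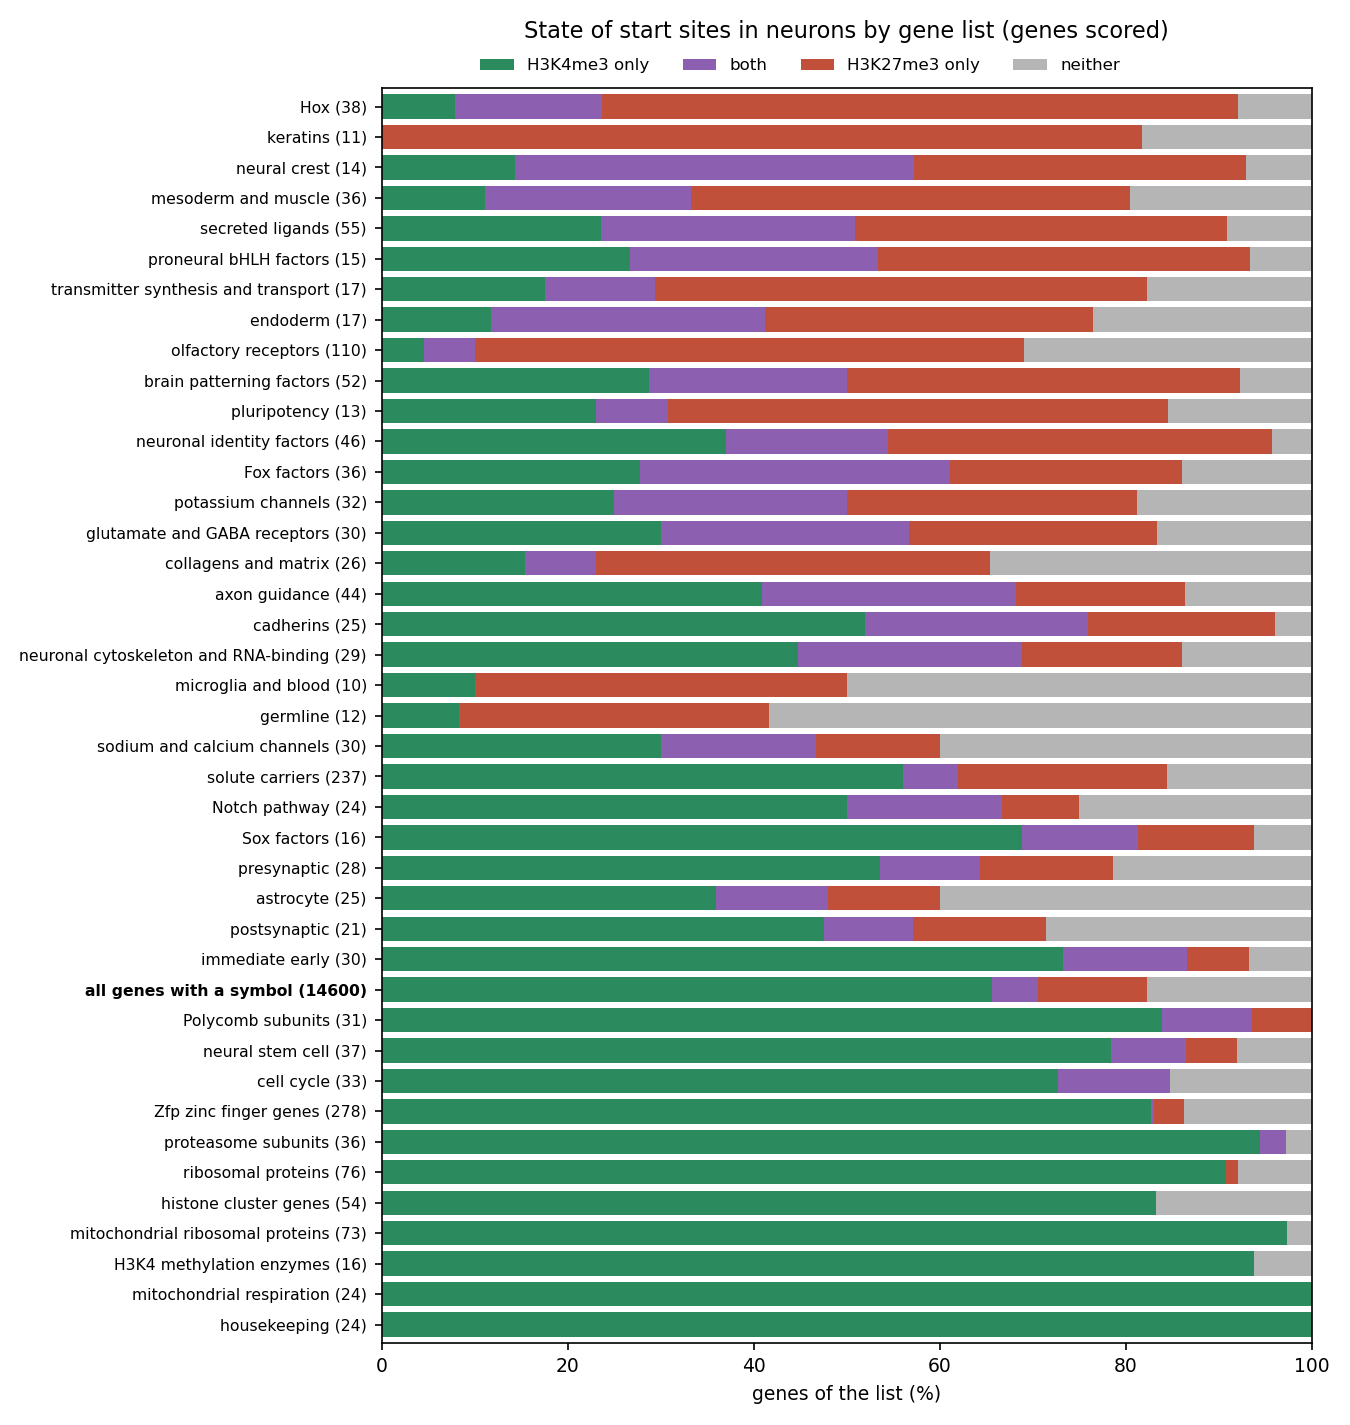
Share of each gene list (%) in the 4 states, for lists with at least 10 scored genes (number in brackets), ordered by the share with H3K27me3, with all genes with a symbol in bold. Hox genes (26 of 38 with H3K27me3 only) and keratins (9 of 11) are at the top, and the listed housekeeping and mitochondrial respiration genes, all with H3K4me3 only, at the bottom. Genes in none of the gene tables are left out, among them 9 keratins.

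Stem cell genes carried broad H3K4me3 in the sorted neurons. Of 37 genes of neural stem and progenitor cells 29 (78.4%) had H3K4me3 only, 3 had both, 2 had H3K27me3 only and 3 had neither. Among all genes with a symbol 65.6% had H3K4me3 only. The median H3K4me3 width of the list was 3300 bp, against 1800 bp for all genes with a symbol. Olig2 had a peak of 10000 bp with 675 reads over 110, a fold of 6.10 (exact 95% counting interval 4.98 to 7.53). Sox2, a factor of neural progenitors, had 9000 bp with 380 reads over 82, a fold of 4.60 (3.62 to 5.92). Nes, the progenitor filament nestin, had 4800 bp with 207 over 53. Sox1 and Id4, progenitor regulators, had both marks, with H3K27me3 peaks of 17200 and 13600 bp. Prom1 and the receptor Notch2 had H3K27me3 only, and the receptors Notch1 and Notch3 had neither.

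The widest H3K4me3 peaks lay in regions of piled-up input. After Sfi1, Pisd-ps1 and Gm10106, whose folds were 1.44, 1.16 and 1.17, the widest peaks with H3K4me3 only were those of Pou3f3 (12200 bp, 566 reads over 167), Olig2, Etv1 (9400 bp, 385 over 94), Sox2 and 3 peaks of 8400 bp, at Sox8 (481 over 89), Sh3bp4 (423 over 141) and 4932422M17Rik. Pou3f3 is a POU factor of neurons and Etv1 an ETS factor. Of 16 Sox genes 11 (68.8%) had H3K4me3 only, near the 65.6% of all genes with a symbol. Sox1 and Sox17 had both, Sox14 and Sox18 had H3K27me3 only and Sox30 had neither. The median H3K4me3 width of the Sox genes was 4400 bp. Pou3f3 and Sh3bp4 lie on chromosome 1, where input was raised.

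H3K27me3 alone was the usual state of Hox genes, which set position along the body axis. Of 38 scored, 26 had H3K27me3 only (11.7% of all genes with a symbol), 6 had both, 3 had H3K4me3 only and 3 had neither. A single peak spanning 128400 bp, 3822 reads against 721 of input (fold 5.57), marked 16 start sites at the Hoxb cluster (chr11:96110800-96239199, mm9). Of these, 15 had H3K27me3 only, and Hoxb7 also had an H3K4me3 peak of 800 bp with 20 reads over 3. Hoxc genes lay under 3 neighbouring peaks of 59200, 32200 and 45000 bp, all without H3K4me3 at the start sites. A peak of 57000 bp marked Evx2 and Hoxd9 to Hoxd13 (chr2:74479800-74536799), where Hoxd9 and Hoxd13 also had H3K4me3. Hoxa5 and Hoxd3 were among those with H3K4me3 only, and Hoxa2, Hoxa3 and Hoxa4 had neither. Genes under a shared peak are not separate observations: 342 H3K27me3 peaks each marked 2 or more genes, 769 genes in all.

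Factors that pattern the brain or specify neuron types were split between the states. Among all genes with a symbol 11.7% had H3K27me3 only, 4.99% both, 65.6% H3K4me3 only and 17.7% neither. Of 52 homeobox and Pax genes of neural patterning, 22 had H3K27me3 only, 11 had both, 15 had H3K4me3 only and 4 had neither. Pax2 and Pax5, of the midbrain-hindbrain boundary, had H3K27me3 peaks of 43000 and 37200 bp with folds of 5.15 and 5.06. Dlx5 and Dlx6, factors of GABA neurons, shared a peak of 55200 bp with 1483 reads over 434. Pax6 (1000 bp, 28 reads over 6) and Emx2 (2800 bp, 123 over 20) had H3K4me3 only. Gbx2 and Gsx1 had both, and Lhx9 and Rax had neither. Of 46 factors of neuronal subtypes, 19 had H3K27me3 only, among them Eomes and Fezf1 of cortical cells, 8 had both, among them Pou3f1 and Pou4f2, and 17 had H3K4me3 only, among them Bcl11b and Pou3f2. Lhx3 and St18 had neither.

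Proneural bHLH factors, which start neuronal differentiation, and related factors counted with them, such as Ascl2 and Ascl4, showed all states. Ascl4 had H3K4me3 only, in 400 bp with 18 reads over 4, as did Neurod1, in 400 bp with 17 over 3. Neurog2 and Atoh1 had both. Ascl2 and Neurog1 had H3K27me3 only, with peaks of 11200 and 12200 bp, and Neurod6 had neither. In all, 4 had H3K4me3 only, 4 both, 6 H3K27me3 only and 1 neither, of 15 scored. Among all genes with a symbol these shares were 65.6%, 4.99%, 11.7% and 17.7%.

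Genes of neuronal function were not uniformly marked by H3K4me3. Of 29 genes of the neuronal cytoskeleton and RNA binding, 13 had H3K4me3 only, 7 both, 5 H3K27me3 only and 4 neither. Among all genes with a symbol these shares were 65.6%, 4.99%, 11.7% and 17.7%. Tubb3 had a peak of 3800 bp with 140 reads over 48 and Mapt one of 2800 bp with 116 over 24. The neurofilament genes Nefl, Nefm and Nefh all had both, with H3K27me3 peaks of 15400, 13000 and 10200 bp over H3K4me3 peaks of 1000 to 1200 bp. With the false discovery rate under 1e-20, 0 of the 29 genes had both, and by the gene tables' own peaks 1 did. Stmn2 (4400 bp, 110 over 18) and Stmn4 (5000 bp, 81 over 38) had H3K27me3 only, and Gap43, of growth cones, had neither. Presynaptic genes came nearer to the background, with 15 of 28 at H3K4me3 only (Syn1 and Syn2 of vesicles), 3 at both (Bsn and Rims1 of release sites), 4 at H3K27me3 only (Syt1, Cplx1) and 6 at neither (Syp, Snap25). Postsynaptic genes gave 10, 2, 3 and 6 of 21, with Shank3 and Homer1 at H3K4me3, Homer2 and Dlgap1 at both, Dlg2 and Dlgap2 at H3K27me3 and Dlg3 and Dlg4 at neither, all scaffolds of the synapse.

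Receptors, channels and guidance molecules had both marks in larger shares than all genes with a symbol, of which 4.99% had both. Not scored were 5 receptor, 6 potassium channel, 2 sodium and calcium channel and 2 guidance genes. By the gene tables' own peaks, where fewer genes of any kind had both, 2 of 30 receptor subunits and 1 of 44 guidance genes did. So did 1 of 32 potassium and 1 of 30 sodium and calcium channels. Of 30 glutamate and GABA receptor subunits 8 had both, 9 had H3K4me3 only, 8 had H3K27me3 only and 5 had neither. Gria2 and Gria4, AMPA receptor subunits, had H3K4me3 peaks of 3200 and 4800 bp. Grin2b, of NMDA receptors, had 800 bp of H3K4me3 with 24 reads over 7 inside 30800 bp of H3K27me3 with 1085 over 360, and the kainate receptor Grik3 also had both. Gria3 and Grin1 had H3K27me3 only and Gria1 and Grin2c neither. Of 32 potassium channels 8 had both (Kcna1, Kcna2), 10 H3K27me3 only (Kcna5, Kcnq1), 8 H3K4me3 only (Kcnc1, Kcnd2) and 6 neither (Kcnq3, Kcnj10). Of 30 sodium and calcium channels 5 had both (Cacna1e, Cacna1g), 4 H3K27me3 only (Scn2b, Scn4b), 9 H3K4me3 only (Scn3a, Scn8a) and 12 neither (Scn1a, Scn2a1).

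Axon guidance genes had both marks at 12 of 44, such as the netrin receptors Unc5a and Unc5b. Another 18 had H3K4me3 only (the ligand Ntn4 and its receptor Dcc), 8 H3K27me3 only (the ligands Slit1 and Slit2) and 6 neither (Ntn1, Robo3). The receptor Plxna2 had 4600 bp of H3K4me3 with 208 reads over 65, one of the widest at any gene with both marks. It overlapped an H3K27me3 peak of 8400 bp on chromosome 1, which began 777 bp from the start site. Cadherins, which hold cells together, gave 13 at H3K4me3 only (Cdh2, Cdh4), 6 at both (Cdh8, Cdh11), 5 at H3K27me3 only (Cdh1, Cdh7) and Cdh5 at neither.

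Genes of transmitter synthesis and transport had H3K27me3 only in a larger share than all genes with a symbol (11.7%). Of 17 scored, 9 had H3K27me3 only, 2 both, 3 H3K4me3 only and 3 neither. Another 6 listed genes were not scored. By the gene tables' own peaks, 4 of the 17 had H3K27me3 only and 9 had neither. The vesicular transporters Slc32a1 (GABA) and Slc17a6 (glutamate) had H3K27me3 peaks of 15000 and 14000 bp, with 428 reads over 106 and 363 over 92. Slc6a2, the noradrenaline transporter, had 40000 bp and Chat, of acetylcholine synthesis, 19200 bp. Glul, glutamine synthetase, was among those with both. Slc18a1 and Slc6a9 had H3K4me3 only. Gad1, of GABA synthesis, and Th, of catecholamine synthesis, had neither, with H3K4me3 peaks 7471 and 121367 bp away. Among all 237 solute carriers 133 had H3K4me3 only, 14 both, 53 H3K27me3 only and 37 neither.

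Lists of signals and of regulators of other lineages held genes in all 4 states. Both marks, and H3K27me3 only, were found there in larger shares than among all genes with a symbol (4.99% and 11.7%). Of these lists 10 secreted ligands, 11 mesoderm and muscle genes and 9 endoderm genes were not scored. Of 55 secreted ligands 15 had both, 22 H3K27me3 only, 13 H3K4me3 only and 5 neither. Wnt3 and Wnt5b had both, Wnt1 and Wnt2 H3K27me3 only, Wnt5a and Wnt7a H3K4me3 only, and Fgf1 and Fgf10 neither. Of 36 forkhead factors 12 had both (Foxa1, Foxa3), 9 H3K27me3 only (Foxa2, Foxb2), 10 H3K4me3 only (Foxd2, Foxj2) and 5 neither (Foxj1, Foxk2). Of 14 neural crest regulators 6 had both (Foxd3, Tcfap2a), 5 H3K27me3 only (Tcfap2b, Tcfap2c), 2 H3K4me3 only (Mitf, Ednra) and Ednrb neither. Mesoderm and muscle regulators gave 8 both (Tbx18, Gata6), 17 H3K27me3 only (Mesp1, Tbx1), 4 H3K4me3 only (Tbx2, Twist1) and 7 neither of 36. The endoderm list also counted Sox18, which is not an endoderm regulator. That list gave 5 both (Foxa1, Foxa3), 6 H3K27me3 only (Foxa2, Sox18), 2 H3K4me3 only (Prox1, Onecut1) and 4 neither of 17. The lists share members, such as Pax3 and Foxa1, and are not independent.

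Scored keratins had H3K27me3 only or neither mark, and the other lists of genes of other cell types were mixed. Among all genes with a symbol 65.6% had H3K4me3 only, 4.99% both, 11.7% H3K27me3 only and 17.7% neither. Genes in none of the gene tables were not scored: 9 keratins, 22 germline, 11 pluripotency, 13 matrix and 4 astrocyte genes. For olfactory receptors the number not scored is unknown. Peaks decide which genes are in the gene tables, so these counts describe scored genes and not whole classes. Of 11 keratins 9 had H3K27me3 only, among them Krt1 (16200 bp) and Krt4 (2400 bp), and Krt10 and Krt19 had neither. Of 110 olfactory receptors 65 had H3K27me3 only, 34 neither, 6 both and 5 H3K4me3 only. Olfr12 and Olfr1342 had H3K27me3 only, and the 5 with H3K4me3 only include Olfr1131 with 23 reads over 6. Collagens and other matrix genes gave 11 H3K27me3 only (Col3a1, Col4a1), 9 neither (Col1a2, Col2a1), 4 H3K4me3 only (Lama5, Lamb1) and 2 both (Col23a1, Fn1). Germline genes gave 4 H3K27me3 only (Sycp2, Tdrd9), 7 neither (Dazl, Sycp1) and Gdf9 with H3K4me3. Pluripotency genes gave 7 H3K27me3 only (Tbx3, Utf1), 3 H3K4me3 only (Klf4, Klf2), 2 neither (Esrrb, Tcl1) and Lin28b with both. Astrocyte genes gave 9 H3K4me3 only (Slc1a2, Slc1a3), 3 both (Gja1, Slc4a4), 3 H3K27me3 only (Aldh1l1, Gjb6) and 10 neither (Gfap, S100b).

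Genes of smaller groups follow, to be read against the same shares of all genes with a symbol. Of these lists 11 oligodendrocyte, 13 microglia and blood and 11 vessel genes were in none of the gene tables and were not scored. Oligodendrocyte genes gave Cnp and Pdgfra with H3K4me3 only, Ugt8a with both, Cldn11 with H3K27me3 only and 3 with neither (Mbp, Mobp) of 7. Microglia and blood genes gave 4 H3K27me3 only (C1qa, C1qb), 5 neither (Cd68, Itgam) and 1 H3K4me3 only of 10. Vessel genes gave Kdr and Rgs5 with H3K27me3 only, Flt1 with both and 5 with neither of 8, none with H3K4me3 only.

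Cell cycle genes had H3K4me3 only in a share near that of all genes with a symbol (65.6%). Of 33 cell cycle genes 24 had H3K4me3 only (Ccnb1, Ccnd1), 4 both (Ccnd2, Cdk6), none H3K27me3 only and 5 neither (Ccna2, Ccnb2), and the median H3K4me3 width was 1100 bp, against 1800 bp for all genes with a symbol. With the false discovery rate under 1e-20, 9 of the 33 had H3K4me3 only and 21 had neither. Calls were lost across all genes at that limit: of 10719 with H3K4me3 only, 7250 kept this state and 3469 then had neither. Ccnd2, a D cyclin, had 2000 bp of H3K4me3 with 66 reads over 22 inside 8600 bp of H3K27me3 with 219 over 82. Among inhibitors of cyclin-dependent kinases, Cdkn1b had 5400 bp of H3K4me3 with 292 over 49, Cdkn2a had H3K4me3 only, Cdkn1c had 20600 bp of H3K27me3 with a short H3K4me3 peak of 800 bp, and Cdkn1a and Cdkn2d had neither. Immediate early genes, induced by activity, gave 22 of 30 at H3K4me3 only (Fos, Fosb), or 73.3% beside the 65.6% of all genes with a symbol. Another 4 were at both (Egr2, Egr4), 2 at H3K27me3 only (Ier3, Bdnf) and 2 at neither (Fosl1, Egr3).

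Genes for the enzymes of both marks and their partners had H3K4me3 only in larger shares than all genes with a symbol (65.6%). Of 31 Polycomb subunits and H3K27 demethylases 26 had H3K4me3 only, among them Ezh1 and Ezh2, which carry the H3K27 methyltransferase activity. Pcgf5, Cbx2 and Rybp had both and Phf19 and Cbx7 had H3K27me3 only. Of 16 enzymes and partners of H3K4 methylation 15 had H3K4me3 only, such as Mll1 and Mll2, and Ash2l had neither, 5967 bp from its nearest H3K4me3 peak. In the Notch pathway 12 of 24 had H3K4me3 only (the ligands Dll1 and Dll3), 4 both (the ligands Dll4 and Jag2), 2 H3K27me3 only (Notch2, Hes2) and 6 neither (Notch1, Notch3).

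The genes with both marks ranged from tiny H3K4me3 peaks in vast domains to broad H3K4me3 peaks beside short H3K27me3. By H3K27me3 width they were led by Hoxb7, then Pax3 of neural crest and muscle (115200 bp, 3650 reads over 1238), Sertad4 (81200 bp), Zdbf2 (73800 bp) and Ihh, a hedgehog ligand (69800 bp). Pax3 had 1400 bp of H3K4me3 with 37 reads over 20, a fold of 1.84 (exact 95% counting interval 1.04 to 3.34). Of the 10 widest, 7 lay on chromosome 1. By H3K4me3 width Sp140 (19400 bp) and C130026I21Rik (8400 bp) led, in piled-up input with folds of 1.21 and 1.27. Mycn, a Myc factor of progenitors, followed with 4800 bp and 142 reads over 25, and its H3K27me3 peak of 1600 bp lay 880 bp from the start site.

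**Figure D4:**
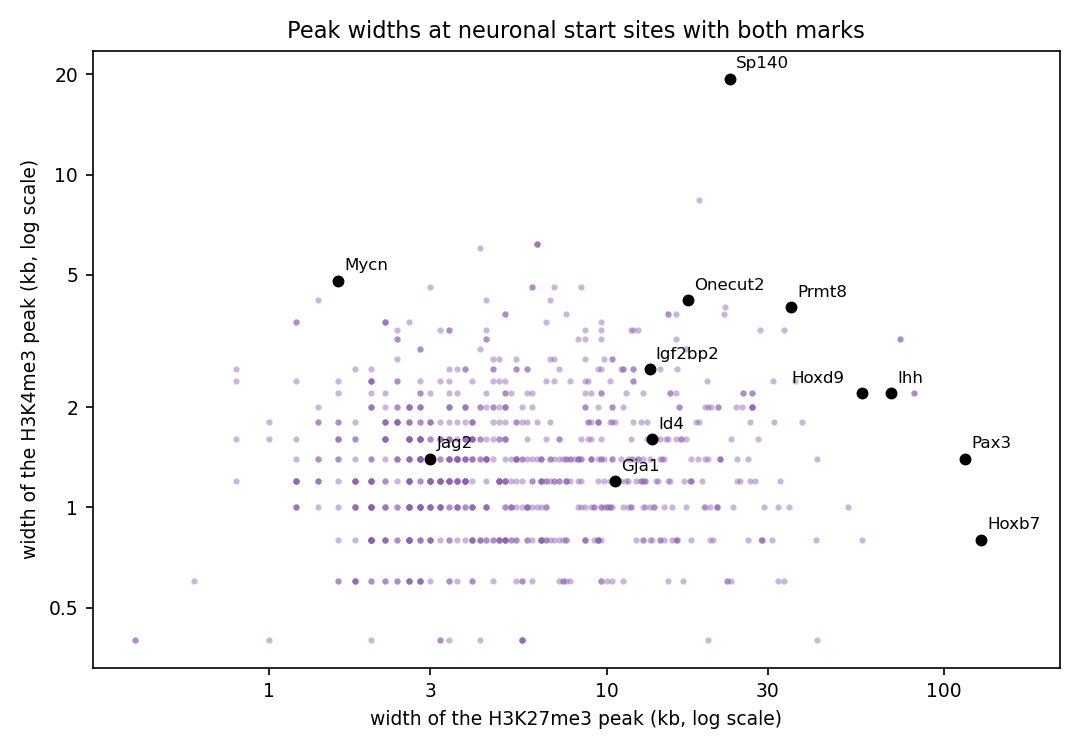
Widths of the H3K27me3 peak (kb, horizontal) and of the H3K4me3 peak (kb, vertical) at the 861 start sites with both marks, on log axes; each point is a gene, and named genes are black. Hoxb7 and Pax3 sit at the right, with H3K27me3 peaks of 128400 and 115200 bp over H3K4me3 peaks of 800 and 1400 bp, Mycn at the upper left, and Sp140, in piled-up input, at the top.

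Jag2 shows a compact start site with both marks, for which the promoter is printed above. H3K4me3 covered 1400 bp with 30 reads over 2 (fold 14.9, exact 95% counting interval 3.78 to 129), inside 3000 bp of H3K27me3 with 66 reads over 9 (fold 7.70, 3.82 to 17.6). Among genes with both marks and at least 50 reads in the H3K27me3 peak, Jag2 came after only Dlk2 (63 reads over 8) and Ccdc87 (81 over 11) by fold. By H3K4me3 fold, again from 50 reads, the first were Zfp704 (54 over 4), Ptchd2 (61 over 5) and Cbx2 (76 over 7). Ranks by fold rest on few input reads, and their intervals overlapped widely: 4.95 to 51 for Zfp704 and 4.92 to 38.7 for Ptchd2. The largest ratios of H3K4me3 to H3K27me3 fold included ones with almost no input reads, as at Smtnl2 (21 reads over 0) and Lin28b, an RNA-binding protein of early embryos (31 over 1). The smallest were at A730013G03Rik, B4galt1, Hoxa11, Hoxa11as and Ihh, with H3K4me3 folds of 1.63, 4.64, 2.46, 2.46 and 1.87 beside H3K27me3 folds of 3.67, 9.45, 4.98, 4.98 and 3.65.

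With H3K27me3 only, the widest peaks after the Hoxb domain were those of Cbfa2t3, a transcriptional corepressor (89800 bp, 2691 reads over 664), Ccdc108 (69800 bp), Gm10831 (68000 bp), Tcfap2b, a factor of neural crest (62000 bp), and Hoxc13. Otp had 56800 bp with 1614 reads over 421 and a fold of 4.03 (3.61 to 4.49), and its nearest H3K4me3 peak lay 7012 bp from the start site. Among peaks of at least 50 reads the highest folds belonged to narrow ones: Igdcc4 (2600 bp, 64 reads over 7, fold 9.60, 4.40 to 24.8), Mapk13 (3000 bp, 70 over 8) and Cmtm8 (2400 bp, 52 over 6). Prdm16, a zinc finger regulator, combined a fold of 8.45 (5.35 to 14) with 6400 bp and 169 reads over 21. For H3K4me3 only the highest folds included those of Srsf16 (51 reads over 0) and Haus1 (65 over 2), again on almost no input.

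Genes with neither mark were mostly far from both. Of the 4704, 2677 (56.9%) had no peak of either mark within 10000 bp, 578 (12.3%) had H3K4me3 within 5000 bp and 756 (16.1%) had H3K27me3 within 5000 bp. Gfap lay 1574 bp from an H3K27me3 peak and 19227 bp from an H3K4me3 peak. S100b, a calcium-binding protein of astrocytes, lay 83199 and 15399 bp away. Of H3K27me3-only genes 152 (6.09%) had H3K4me3 within 5000 bp, and of H3K4me3-only genes 510 (4.76%) had H3K27me3 within 5000 bp.

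Some genes lay close to the limit of 1000 bp. Just inside it for H3K4me3 were Foxd1 (990 bp), Myo1c (994 bp) and Clec2f-ps (1000 bp), and just outside Zp3r and Exoc3l (1002 bp) and Hnrnpm (1006 bp). For H3K27me3 Lrrc8b (995 bp), Zp2 (996 bp) and 4933411G06Rik (1000 bp) were inside and 3110082D06Rik (1001 bp), Lamc3 (1002 bp) and Tle3 (1010 bp) outside.

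The states were uneven along the genome. Chromosome 1 had both marks at 155 of 1479 genes (10.5%) and H3K4me3 only at 41.4%, whereas autosomes 2 to 19 ranged from 2.56% to 6.55% for both and from 49.4% to 64.2% for H3K4me3 only. It also held 2630 H3K4me3 peaks, against 381 to 1026 on the other autosomes. Input reads were denser in its H3K27me3 peaks, 11.6 per kb against 7.29 to 9.05 on autosomes 2 to 19. The part of this raised input in the states called there was not tested. Without chromosome 1, 706 of 17299 genes (4.08%) had both marks.

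On the X chromosome only 8 of 493 genes had H3K27me3 alone (1.62%) and 1 had both (0.203%), while H3K4me3 alone stood at 59.2%. Input density there was 4.92 reads per kb in H3K27me3 peaks, below every autosome. The part of this lower density in the few calls was not tested. Fewer cells with a mark and less of the mark per cell cannot be told apart in these samples on any chromosome.

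**Figure D5:**
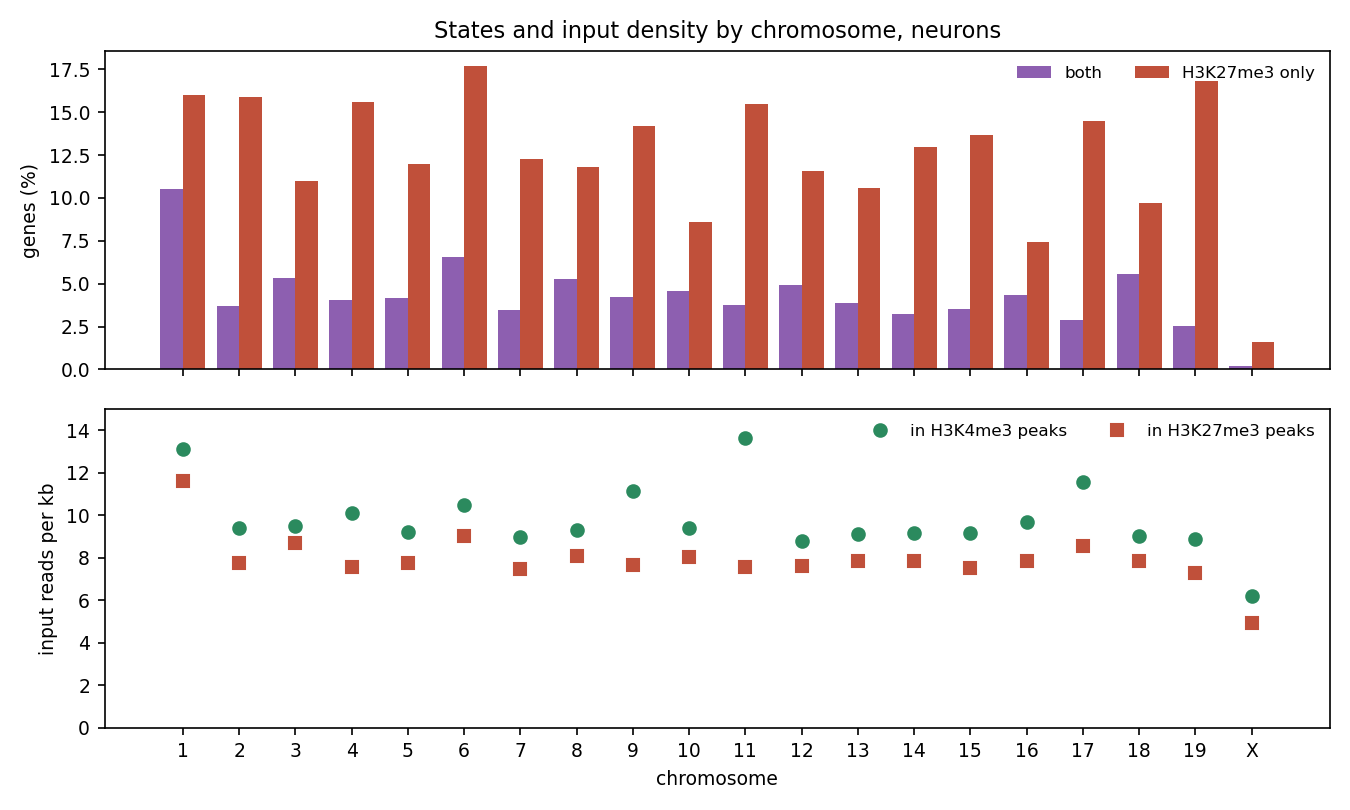
Upper panel: share of genes (%) with both marks and with H3K27me3 only on each chromosome. Lower panel: input reads per kb inside the H3K4me3 peaks (circles) and the H3K27me3 peaks (squares); chromosome 1 stands out with 10.5% of genes at both marks and 11.6 input reads per kb in H3K27me3 peaks, and the X chromosome with 1.62% at H3K27me3 only.

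How many genes had both marks depended on which peaks were counted. With the false discovery rate (FDR) held under 1e-20 in both lists, 105 genes had both. Of the 861, 313 then had H3K27me3 only, 155 H3K4me3 only and 288 neither. Jag2, Id4, Igf2bp2, Ret and Foxc2, chosen after their values were seen, were among those still with both, whereas Hox genes with both went from 6 to 0 and those with H3K27me3 only from 26 to 30. The count with both went from 8 to 0 of the glutamate and GABA receptors, from 8 to 1 of the potassium channels, from 12 to 5 of the axon guidance genes and from 15 to 2 of the secreted ligands. When a gene counted only through the peak its own gene table names, 156 had both. When a peak had to cover the start site, 451 did.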

How the data were processed

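Chromatin immunoprecipitation and sequencing of H3K4me3, H3K27me3 and input in day 11 neurons gave 1 library each. FastQC, Bowtie, SAMtools and SICER, with build mm9, are named per the submitters' processing notes. The versions and the settings used were not given in the sources used here. The deposited peak lists give, per the file headers, the count of immunoprecipitated and of input reads in each peak, a p-value, a fold change (the ratio of the counts, scaled by the authors) and a false discovery rate (FDR), a p-value adjusted by the authors. Peak bounds fell on steps of 200 bp, and the largest FDR was 0.000956 for H3K4me3 and 0.000996 for H3K27me3. The deposited gene tables name genes, positions and nearby peaks. The H3K27me3 gene table holds 4011 rows with an FDR of at most 9.86e-21, so genes were scored on the full peak lists.

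Start sites were placed in states with Python 3.11.15, pandas 2.3.3 and numpy 2.4.6, intervals were computed with scipy 1.17.1, and figures were drawn with matplotlib 3.10.9. The distance step was tested on simulated data of 1000 genes, with 0 wrong states, and on 1000 genes of the tables by exhaustive search, with 0 wrong distances. Where several peaks lay in the window, the nearest one supplied the values. Fold intervals are exact 95% intervals on the read counts and cover counting error only. Genes were named by rule: the 10 widest peaks and the 10 highest folds (from 50 reads) per state, the 5 highest and 5 lowest fold ratios at genes with both marks, the 3 nearest the limit on each side, and members of 43 gene lists in list order. Some genes that this rule would name are not reported here, and for some of them the next of the list is given. The members and lists were chosen with earlier results of these data known. Alternatives were another window, the gene tables' own peaks, stricter or equal peak numbers, genes with a symbol, start sites counted once, reads per kb and leaving out chromosome 1.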

Additional observations from a re-analysis of the deposited data

How the results depend on the processing

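With 1 library per mark no value has a replicate error, and the depth outside peaks is unknown, so a missing peak may lie below detection. Against 861 genes with both marks, the count was 451 when a peak had to cover the start site, 1585 within 5000 bp, 156 by the gene tables' own peaks, 105 with the FDR under 1e-20 and 306 with the strongest 50% of each list. H3K27me3 only fell to 799 by the gene tables' own peaks. Neither rose from 4704 to 8289 by those peaks, 9560 with the FDR under 1e-20 and 9097 with the strongest 50%, and was 2586 among genes with a symbol, where fewer genes are counted. The median H3K4me3 width, both minus H3K4me3 only, was -400 bp and became -200 bp with neighbouring start sites counted once. The median H3K27me3 width, both minus H3K27me3 only, was -200 bp and reversed to 400 bp when a peak covered the start site, 1000 bp by the gene tables' own peaks, 200 bp with the FDR under 1e-20 and 800 bp with equal numbers of peaks; the cause was not tested. The H3K4me3 fold difference of -0.51 became -0.31 without chromosome 1, an alternative chosen after seeing the data, and -9.52 as reads per kb. The H3K27me3 fold difference of -0.35 reversed to 0.43 as reads per kb. Of 172 list counts, 128 stayed within 1.5 times within 5000 bp, 77 with the FDR under 1e-20 and 64 by the gene tables' own peaks, and the most common state of a list was the same in 35, 31 and 23 of 43 lists.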
